A study of Mus musculus with 42 samples.

Results

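Ribosome biogenesis and RNA polymerase I genes were followed in whole mouse kidneys after loss of Tsc2, of Tfeb or of both, and after rapamycin. The 35 genes come from a named list that was made with earlier results of these data known. None was chosen by a threshold on these values, and all were taken by symbol, out of 54532 genes in the tables. They comprise Myc, 7 RNA polymerase I (Pol I) subunits and factors, 3 abundant nucleolar proteins and chaperones, 5 small nucleolar ribonucleoprotein (snoRNP) proteins, 8 factors of the small subunit processome and 40S assembly, and 11 factors of 60S assembly or other nucleolar roles. All 35 were found in the table of each cohort and passed the low-count filter in every cohort.

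Ribosomes are built in the nucleolus. Pol I transcribes the ribosomal RNA precursor, snoRNPs guide its modification, and separate sets of assembly factors fold and cleave it into the small (40S) and large (60S) subunits. Myc is a transcription factor known to drive genes of all these steps, and mTORC1, the kinase that TSC2 restrains and rapamycin inhibits, is known to promote Pol I transcription. TFEB is a transcription factor of lysosomal genes that is phosphorylated by mTORC1.

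RNA was sequenced from 42 kidneys in 14 groups of 3. In the CaggCreERT2 cohort, tamoxifen given to lactating mothers activated a whole-body Cre, and kidneys were taken at postnatal day 30 (P30) from control, Tsc2 fl/fl (Tsc2 KO), Tfeb fl/fl (Tfeb KO) and doubly floxed (DKO) mice; controls are labelled wild type and are described for the sequencing as Cre-positive, Tsc2+/+ and tamoxifen-exposed. In the KspCre cohort, Cre is driven by the cadherin 16 promoter of tubular epithelium, so other kidney cells keep both genes, and the same 3 knockouts and a control group were taken at P50 without treatment. KspCre controls are also labelled wild type but are described as Cre-negative, untreated and in the drug experiment alike, so the controls of the cohorts differ in Cre. The drug cohort held KspCre control, Tsc2 KO and DKO mice that received vehicle or rapamycin at 1 mg/kg. Injections were intraperitoneal, 3 times per week from P25 for a total of 11, and these kidneys were also taken at P50. The RNA came from a piece of whole kidney, so fewer cells of a type and less RNA per cell cannot be told apart.

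Libraries held 14926050 to 22807605 counted reads (median 17802376), and no member had fewer than 87 reads in any library. Tsc2 was lower in each Tsc2 KO group: 4.06 to 4.55 FPKM (fragments per kilobase of gene and library size) against 9.81 to 10.6 in CaggCreERT2 controls, 3.55 to 4.37 against 8.75 to 9.26 in KspCre, and 3.80 to 4.47 against 8.59 to 9.81 with vehicle. The remaining Tsc2 RNA was at 4.82 to 5.64, 5.17 to 5.81 and 5.53 to 6.41 FPKM in DKO kidneys, where the difference from Tsc2 KO passed the test with vehicle (adjusted p = 0.0008428) and not in CaggCreERT2 (adjusted p = 0.07203) or untreated KspCre (adjusted p = 0.1663). It was higher in rapamycin-treated Tsc2 KO kidneys than with vehicle, at 5.06 to 6.50 FPKM (adjusted p = 0.001987). Tfeb was 1.99 to 3.48 FPKM in CaggCreERT2 DKO against 4.57 to 8.02 in controls. It was 2.65 to 4.09 against 5.85 to 6.24 in untreated KspCre, and 2.565 to 3.18 against 3.89 to 4.70 with vehicle. Against Tsc2 KO, Tfeb was lower in DKO in CaggCreERT2 (edgeR, adjusted p = 0.003253) and with vehicle (adjusted p = 0.0006675). In untreated KspCre that difference did not pass (adjusted p = 0.36). For 4 CaggCreERT2 libraries the tables of counts and of FPKM disagree on the name, for 2 of them also on the genotype, and naming followed the latter. Of these 2 libraries, the one named Tfeb KO 3 in the FPKM table and DKO 3 in the count table had Tsc2 at 10.24 FPKM, against 9.06 and 9.34 in the other Tfeb KO mice. The one named DKO 1 in the FPKM table and Tfeb KO 3 in the count table was at 5.26, against 4.82 and 5.64 in the other DKO mice, so the Tsc2 values go with the FPKM names and against the count names. By Xist and Y-linked reads the CaggCreERT2 controls were 3 males, against 1 male of 3 in Tsc2 KO, 0 of 3 in Tfeb KO and 2 of 3 in DKO, while all KspCre mice were female. KspCre DKO mouse 1 stood apart in immune markers, with a summed level of 10 macrophage genes of 2347 FPKM against 265 and 363 in the other two DKO mice.

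The members spanned a wide range of levels. In CaggCreERT2 controls the median of their group means was 8.10 FPKM, from 1.67 to 79.1, and 12 of the 35 lay under 5 FPKM. Npm1, an abundant nucleolar chaperone, was the highest (77.1 to 82.9 FPKM), and nucleolin (Ncl) followed at 37.2 to 39.2 FPKM. Wdr12, a 60S assembly factor, was the lowest in that group (1.60 to 1.77 FPKM). The heat map sets each library against the controls of its cohort.

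**Figure D1:**
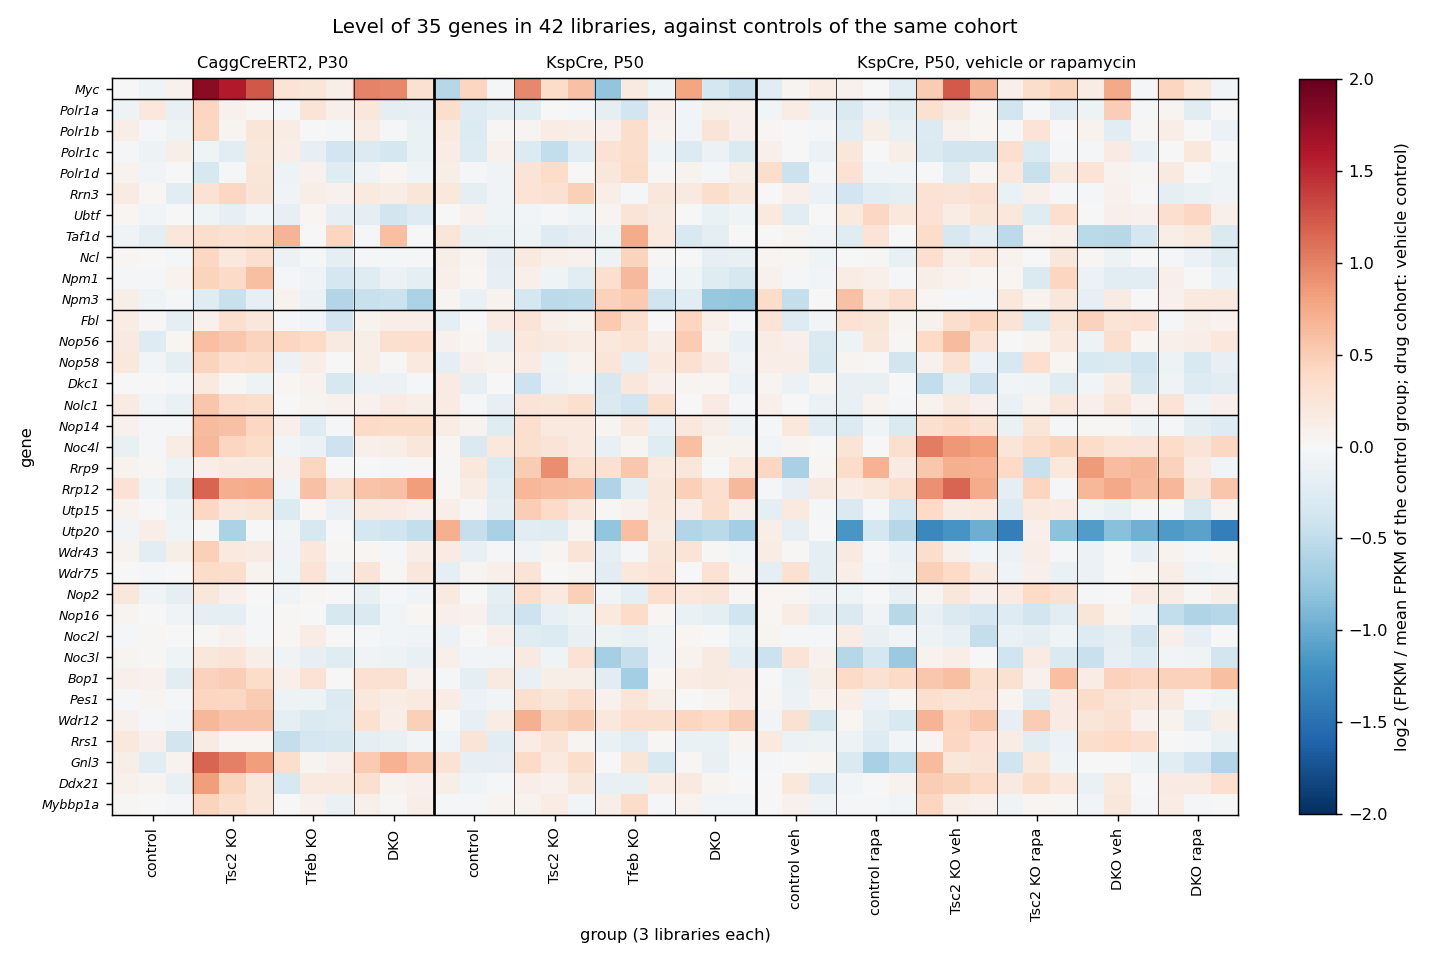
Level of the 35 genes (rows, grouped by role) in the 42 libraries (columns, 3 per group) as log2 of FPKM over the mean FPKM of the control group of the same cohort (vehicle controls in the drug cohort). Myc, Rrp12 and Wdr12 are red in the untreated and vehicle-treated Tsc2 KO columns of all 3 cohorts, Rrp12 and Wdr12 are not red in every rapamycin-treated one, and Utp20 is blue in most genotype and drug groups of the drug cohort.

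The first question was how the genes differ when Tsc2 is lost. In CaggCreERT2 kidneys at P30, 17 of 35 members rose and 0 fell (edgeR quasi-likelihood test, adjusted p of 0.05 or less over 16348 genes), where 15.6% of all tested genes rose and 13.4% fell. The members' median log2 fold change was 0.36, against 0.00 for all genes, and 31 of 35 were above 0. In untreated KspCre kidneys at P50 only Wdr12 rose and 0 members fell (background 7.64% and 6.21%), with a median of 0.13 against -0.01 for all genes and 25 of 35 above 0. At an unadjusted p under 0.05, 7 members were higher and 2 lower there, where 27.5% of all genes passed in either direction, and DESeq2 called 4 higher and 0 lower (10% and 8.63% of all genes). In the vehicle-treated KspCre kidneys 10 rose and 2 fell (background 19.4% and 18.9%), with a median of 0.23 against 0.01. Leaving out 1 of those libraries gave 5 to 10 higher and 1 to 2 lower. Fewer members rose without the low-count filter or with only the groups compared. Rrn3, Nop56, Nop14, Pes1 and Dkc1 lost their calls in both of these fits, and Wdr12 and Ddx21 in the second. With sex as a covariate, 12 members rose in the CaggCreERT2 cohort, where 9.99% of all genes rose and 8.30% fell in that fit; the calls of Ncl, Nop58, Noc4l, Utp15 and Ddx21 were lost. Across the 3 cohorts 23 members were above 0 each time, 3 were below 0 each time, 10 were called in at least 2 cohorts and 16 in none. The shares of all genes given here are for single cohorts, so these counts across cohorts have no background. Per cohort, the same shares are the background of the list counts for loss of Tsc2 below.

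The same comparison without a model gave 22 members whose 3 Tsc2 KO libraries all lay above the 3 controls by FPKM in the CaggCreERT2 cohort and 2 below, where 19.5% of tested genes lay above and 24.6% below. In untreated KspCre kidneys 10 members lay above and 2 below (background 19.7% and 17.7%). With vehicle 15 lay above and 4 below (background 24.5% and 23.0%). Rrn3, Nop56, Nop14, Rrp9, Rrp12, Pes1 and Wdr12 were above without overlap in each cohort, for which no share of all genes is given. The cohorts differ in Cre, age, treatment and table, and their effects were not tested against each other.

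**Figure D2:**
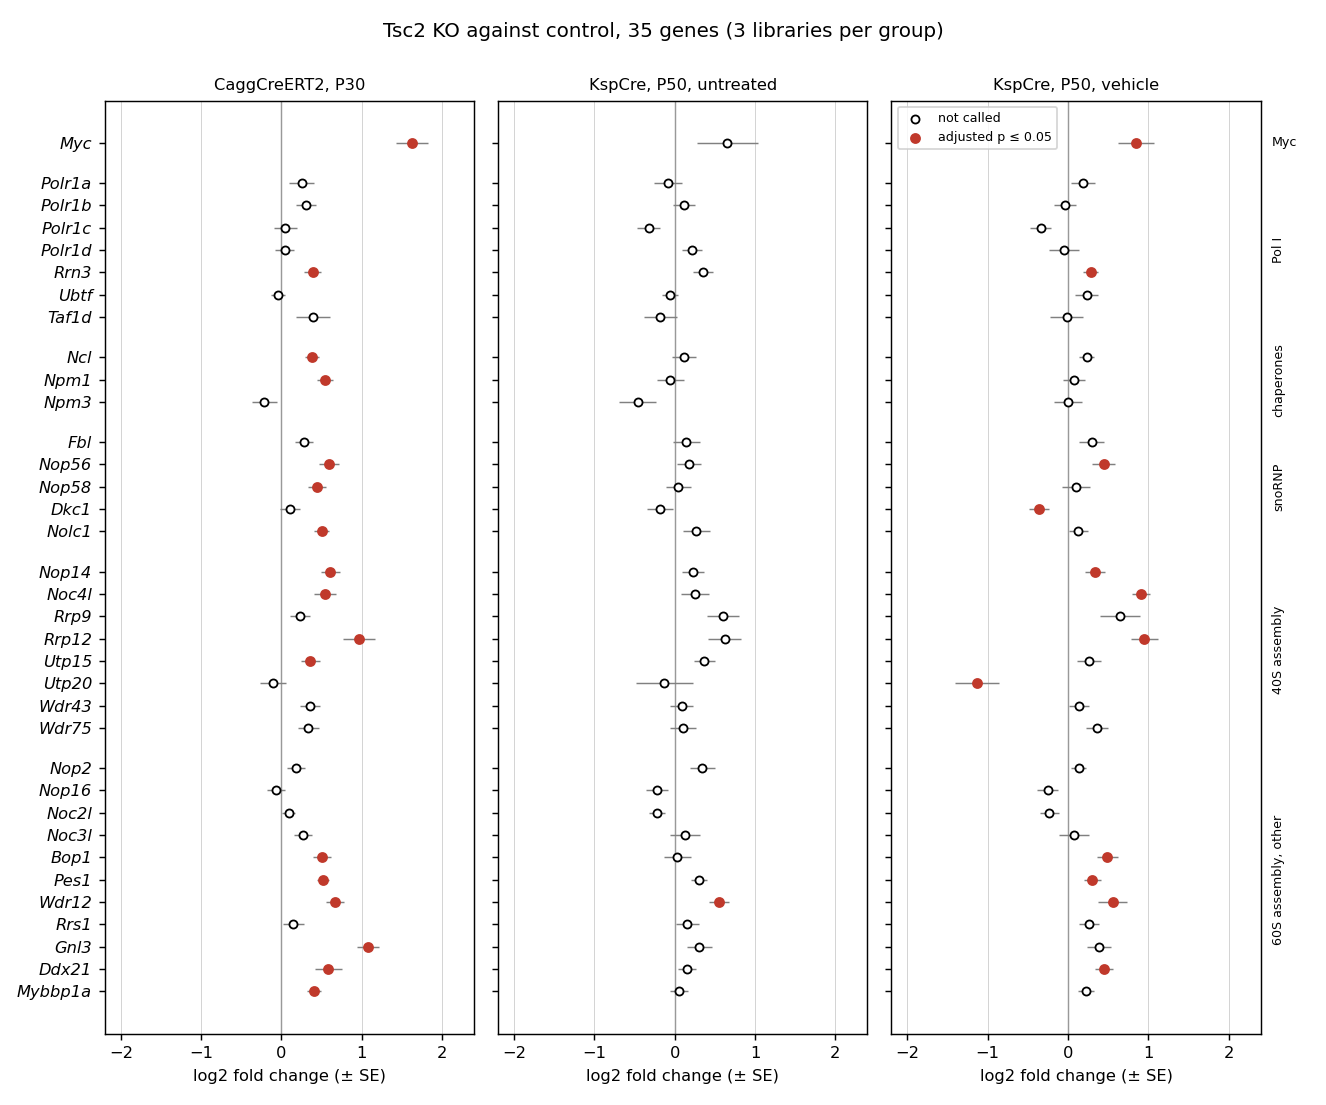
Log2 fold change of Tsc2 KO over control (x axis, with standard error) for the 35 genes (y axis, grouped by role) in the CaggCreERT2, untreated KspCre and vehicle-treated KspCre cohorts, 3 libraries per group. Filled points passed the adjusted p of 0.05: 17 higher in the first, 1 higher in the second, and 10 higher with 2 lower in the last.

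Myc had the largest difference in the CaggCreERT2 cohort. It was at 12.1, 10.4 and 8.20 FPKM in the 3 Tsc2 KO kidneys and at 3.45, 3.25 and 3.66 in the controls, a log2 fold change of 1.63 ± 0.20 (SE, adjusted p = 0.0001035). In the drug cohort it was at 4.04, 6.63 and 4.54 FPKM in vehicle-treated Tsc2 KO against 2.42, 2.93 and 3.13 in vehicle controls (0.85 ± 0.23, adjusted p = 0.007997). Neither pair of groups overlapped. In untreated KspCre kidneys the values were 6.43, 4.26 and 4.97 FPKM against 2.21, 4.46 and 3.22, so that 1 control lay among the Tsc2 KO mice, and the difference of 0.66 ± 0.38 did not pass (adjusted p = 0.2934). Without vehicle-treated Tsc2 KO mouse 2 the drug-cohort call was lost. Among 12 genes of the Myc network, 2 rose and 0 fell in the CaggCreERT2 cohort, 2 rose and 1 fell in untreated KspCre, and 5 rose and 2 fell with vehicle. The shares that rose were 16.7%, 16.7% and 41.7%, near that of all genes in the first cohort and above it in the others. In untreated KspCre 8.33% also fell, where 6.21% of all genes did. The list of 12 mixes Myc relatives, such as Mycn, with other genes, such as those of the Mxd group. The activity of Myc was not tested.

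Of the 7 Pol I genes, only Rrn3 rose with loss of Tsc2, in the CaggCreERT2 and drug cohorts. That is 14.3% in each, near the share of all genes that rose in the CaggCreERT2 cohort and below it with vehicle. Rrn3 is the initiation factor that carries Pol I to the ribosomal DNA promoter. It was at 9.93, 10.8 and 9.69 FPKM in CaggCreERT2 Tsc2 KO against 9.08, 8.31 and 6.90 in controls (0.39 ± 0.11, adjusted p = 0.01564). With vehicle it was at 9.66, 9.45 and 9.79 against 7.99, 8.48 and 7.32 (0.28 ± 0.09, adjusted p = 0.02593). In untreated KspCre the values were 8.24, 8.49 and 9.55 against 7.93, 6.06 and 6.53 (0.35 ± 0.12, adjusted p = 0.08431). The call was lost without CaggCreERT2 control 3 or Tsc2 KO 2, and in the drug cohort without vehicle control 1 or 3 or Tsc2 KO 1 or 3. In both cohorts it was also lost without the low-count filter and with only the groups compared. The catalytic subunits Polr1a and Polr1b were at 0.25 ± 0.16 and 0.31 ± 0.12 in the CaggCreERT2 cohort, the ribosomal DNA binding factor Ubtf at -0.04 ± 0.09, and the selectivity factor subunit Taf1d at 0.39 ± 0.21, none of them called. Polr1c, a subunit that Pol I shares with Pol III, was among the 3 members with the lowest mean over the cohorts. It was at 17.9, 16.5 and 22.2 FPKM in CaggCreERT2 Tsc2 KO against 18.8, 17.7 and 20.6, at 11.4, 9.85 and 11.8 in untreated KspCre against 15.2, 11.6 and 14.6, and at 11.6, 11.1 and 11.0 with vehicle against 15.3, 14.3 and 13.1. Only the last pair of groups was apart, and its difference of -0.34 ± 0.13 did not pass (adjusted p = 0.05124). Among 13 further Pol I genes, 0 rose and 0 fell in the CaggCreERT2 and untreated KspCre cohorts and 1 rose with vehicle (7.69%). All of these are below the shares of all genes given above.

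Members of the 60S assembly group included the PeBoW complex, made of Pes1, Bop1 and Wdr12, which matures the large-subunit ribosomal RNAs. All 3 subunits rose in the CaggCreERT2 cohort and with vehicle. Of the 11 members of the 60S group, 6 rose in CaggCreERT2 (54.5%, above the 15.6% of all genes). In untreated KspCre 1 rose (9.09%, near the 7.64% of all genes). With vehicle Ddx21 was the only other member of the group that rose. Wdr12, the only member called in all 3 cohorts, was at 2.63, 2.49 and 2.49 FPKM against 1.77, 1.63 and 1.60 in CaggCreERT2 (0.67 ± 0.11, adjusted p = 0.0008952). In untreated KspCre it was at 2.05, 1.70 and 1.78 against 1.25, 1.12 and 1.39 (0.55 ± 0.12, adjusted p = 0.01177), and with vehicle at 1.99, 1.66 and 1.81 against 1.19, 1.53 and 0.990 (0.56 ± 0.18, adjusted p = 0.02257). Every Tsc2 KO library was above every control of its cohort. With a minimum mean of 5 FPKM in a group compared, Wdr12 was called in no cohort. The untreated KspCre call was lost without control 2 or Tsc2 KO 1, and the vehicle call without control 1 or 3 or Tsc2 KO 1. Pes1 was at 24.1, 24.0 and 25.6 FPKM against 17.7, 18.7 and 17.4 in CaggCreERT2 (0.52 ± 0.08), at 17.5, 16.6 and 17.8 against 15.5, 12.9 and 13.5 in untreated KspCre (0.30 ± 0.10, adjusted p = 0.06589) and at 17.7, 16.9 and 17.2 against 14.3, 13.0 and 14.7 with vehicle (0.30 ± 0.11). The vehicle call of Pes1 was lost without any 1 of the 6 libraries, with log2 fold changes between 0.25 and 0.33. Bop1 was at 14.1, 14.5 and 13.2 FPKM against 11.0, 10.9 and 8.90 in CaggCreERT2 (0.50 ± 0.11) and at 12.8, 13.5 and 11.1 against 8.88, 8.11 and 9.67 with vehicle (0.49 ± 0.13). In untreated KspCre, Bop1 overlapped between the groups, at 9.98, 12.1 and 12.01 against 10.9, 9.86 and 12.6 (0.03 ± 0.17).

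Gnl3 (nucleostemin), a nucleolar GTPase of 60S assembly, followed Myc in size in the CaggCreERT2 cohort, at 7.26, 6.51 and 5.80 FPKM against 3.51, 2.79 and 3.40 (1.08 ± 0.13, adjusted p = 0.0001185). It did not pass in untreated KspCre (0.31 ± 0.16) or with vehicle (0.39 ± 0.15, adjusted p = 0.05775). Ddx21, an RNA helicase, was at 18.5, 14.2 and 12.2 FPKM against 11.1, 10.8 and 9.45 in CaggCreERT2 (0.59 ± 0.17, adjusted p = 0.02145), where the call was lost without control 2 or 3 or Tsc2 KO 1. With vehicle Ddx21 was at 13.6, 13.3 and 12.7 against 9.73, 11.2 and 8.07 (0.45 ± 0.11, adjusted p = 0.005553), and in untreated KspCre at 9.96, 9.69 and 10.7 against 9.87, 8.57 and 8.86 (0.15 ± 0.11). The vehicle call of Ddx21 was lost with only the groups compared. Mybbp1a rose in the CaggCreERT2 cohort (0.40 ± 0.09). Nop2, Nop16, Noc2l, Noc3l and Rrs1 were called in none of the 3 cohorts.

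Among the 8 members of the small subunit processome and 40S assembly, 4 rose in the CaggCreERT2 cohort (50%). In untreated KspCre 0 rose and 0 fell, and with vehicle 3 rose (37.5%) and 1 fell (12.5%). The shares that rose were above those of all genes in CaggCreERT2 and with vehicle, and below in untreated KspCre. The share that fell with vehicle was below that of all genes. Rrp12, which acts in pre-40S maturation and export, was at 5.57, 4.14 and 4.19 FPKM against 3.04, 2.34 and 2.11 in CaggCreERT2 (0.96 ± 0.20, adjusted p = 0.003519). It was at 3.64, 3.51 and 3.48 against 2.36, 2.55 and 1.98 in untreated KspCre (0.62 ± 0.20, adjusted p = 0.06293) and at 4.02, 4.78 and 3.55 against 2.08, 1.90 and 2.43 with vehicle (0.95 ± 0.17, adjusted p = 0.000394). Its groups did not overlap in any cohort, and neither call was kept with a minimum mean of 5 FPKM in a group compared. Nop14 and Noc4l, partners in 40S assembly, both rose in the CaggCreERT2 and vehicle cohorts. Noc4l was at 10.2, 8.76 and 8.38 FPKM against 5.88, 6.43 and 7.21 in CaggCreERT2 (0.55 ± 0.14, lost without control 1 or Tsc2 KO 1) and at 9.16, 8.25 and 8.002 against 4.33, 4.71 and 4.51 with vehicle (0.91 ± 0.11, adjusted p = 1.378e-05). In untreated KspCre, Noc4l was at 7.63, 7.33 and 7.05 against 6.29, 5.04 and 7.09, with overlap (0.25 ± 0.18). Nop14 was at 12.1, 11.7 and 10.4 FPKM against 8.28, 7.63 and 7.603 in CaggCreERT2 (0.61 ± 0.12), at 9.98, 9.12 and 9.13 against 8.87, 8.38 and 6.75 in untreated KspCre (0.23 ± 0.14), and at 9.63, 10.1 and 9.51 against 7.50, 8.97 and 6.68 with vehicle (0.34 ± 0.13). The vehicle call of Nop14 was lost without control 1 or 3 or any Tsc2 KO mouse. Utp15, a processome subunit, rose in the CaggCreERT2 cohort (0.36 ± 0.11, adjusted p = 0.03303), a call lost without any control or Tsc2 KO 1. Rrp9, which binds the U3 snoRNA, lay above the controls in each cohort and was called in none (0.23 ± 0.12, 0.60 ± 0.19 and 0.65 ± 0.25).

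Utp20, a large scaffold of the processome, went the other way with vehicle. It was at 2.93, 3.17 and 3.64 FPKM in vehicle-treated Tsc2 KO against 7.86, 6.34 and 7.22 in vehicle controls (-1.14 ± 0.27, adjusted p = 0.003672). Among the 16 comparisons this was the lowest log2 fold change of any member. The control level was less even elsewhere: untreated KspCre controls were at 7.89, 3.51 and 3.09 FPKM against 4.17, 4.08 and 5.00 in Tsc2 KO, and CaggCreERT2 controls at 3.93, 4.47 and 3.83 against 4.14, 2.62 and 4.09. Neither of these differences passed (-0.13 ± 0.36 and -0.11 ± 0.16). Without untreated KspCre control 1 the first of them turned to 0.41.

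Of the 5 snoRNP proteins 3 rose in the CaggCreERT2 cohort (60%), 0 in untreated KspCre, and with vehicle 1 rose and 1 fell (20% each). With vehicle the shares of all genes given above are near 20% too. Of the 3 abundant nucleolar proteins 2 rose in the CaggCreERT2 cohort and 0 in the other cohorts. Nop56 and Nop58, core proteins of box C/D snoRNPs that guide ribosomal RNA methylation, and Nolc1, a snoRNP chaperone, rose there by 0.59 ± 0.12, 0.45 ± 0.11 and 0.50 ± 0.10. Nop56 was at 10.0, 9.56 and 8.97 FPKM against 7.48, 5.55 and 6.81 in CaggCreERT2, at 6.24, 6.05 and 5.92 against 5.72, 5.51 and 4.86 in untreated KspCre (0.18 ± 0.15), and at 6.10, 7.20 and 5.61 against 5.15, 4.95 and 3.79 with vehicle (0.45 ± 0.14, adjusted p = 0.02144, lost without control 3 or Tsc2 KO 2). The Nop58 call was lost without control 3. Fbl, the methyltransferase of these particles, was not called in any cohort (0.28 ± 0.11, 0.14 ± 0.16 and 0.29 ± 0.15). Dkc1, the pseudouridine synthase of box H/ACA snoRNPs, fell with vehicle (-0.36 ± 0.13, adjusted p = 0.03403), a call lost without control 1 or 3 or Tsc2 KO 1 or 3. Ncl and Npm1 rose in CaggCreERT2 by 0.38 ± 0.09 and 0.54 ± 0.10, and were at 0.23 ± 0.10 and 0.07 ± 0.14 with vehicle without being called. Npm3, of the same chaperone family as Npm1, was at 16.5, 14.4 and 17.4 FPKM against 21.1, 18.5 and 19.0 in CaggCreERT2, at 10.4, 9.20 and 9.38 against 13.9, 12.1 and 13.9 in untreated KspCre, and at 9.93, 9.50 and 9.41 against 12.4, 6.91 and 9.55 with vehicle. Its first 2 pairs of groups did not overlap, with Tsc2 KO lower, and no difference passed (-0.21 ± 0.16, -0.46 ± 0.23 and -0.00 ± 0.17).

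**Figure D3:**
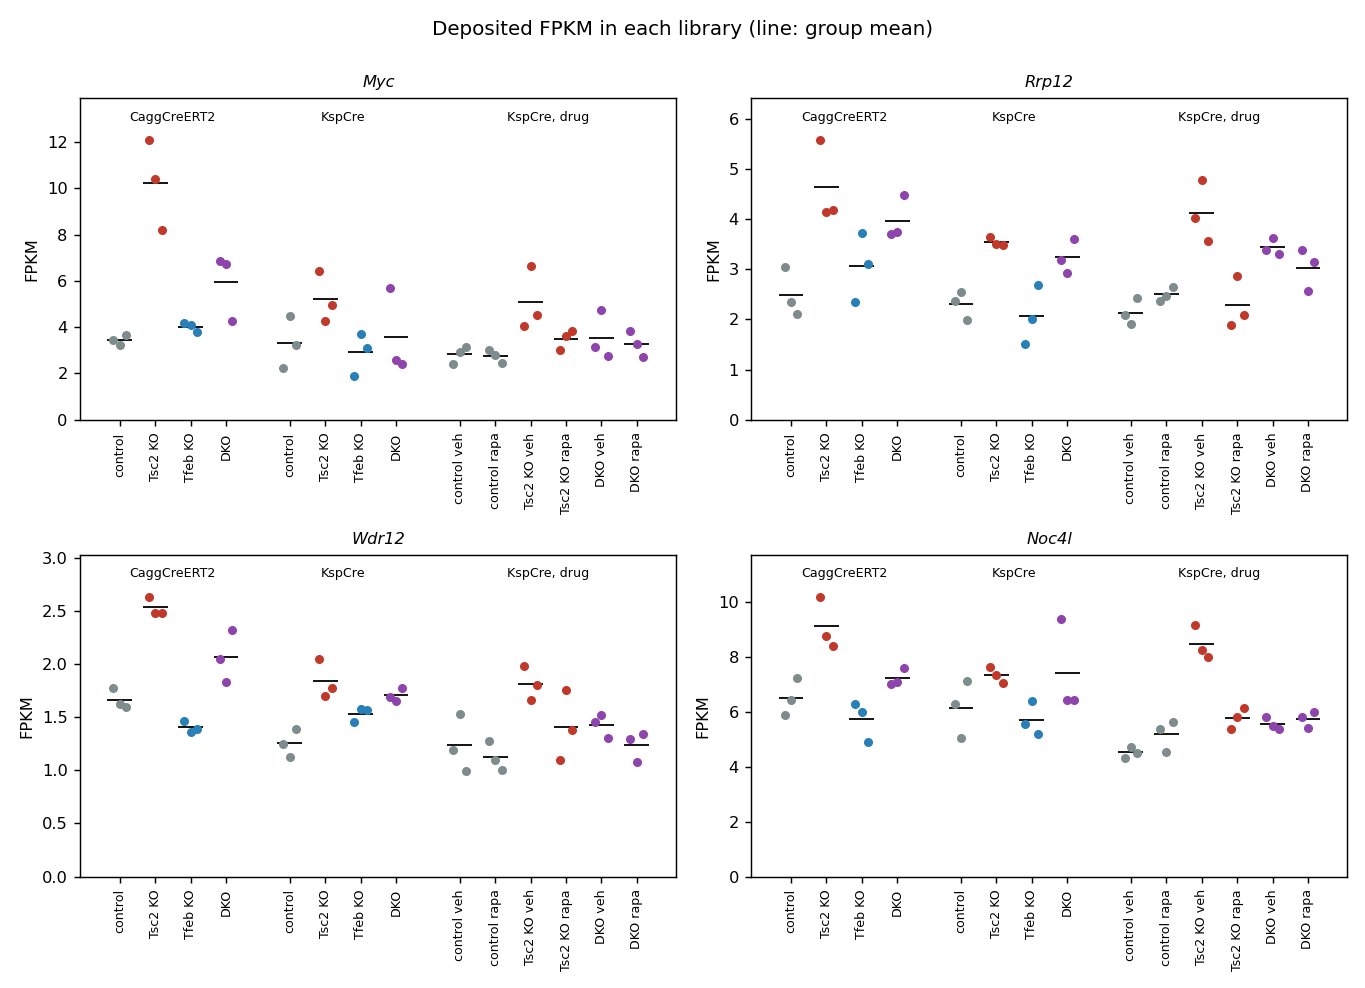
Deposited FPKM (y axis, from 0) of Myc, Rrp12, Wdr12 and Noc4l in each library, with a line at the mean of each group of 3. Untreated and vehicle-treated Tsc2 KO points sit above the matching controls of their cohort except for Myc and Noc4l in untreated KspCre, where 1 control lies among them, and rapamycin-treated Tsc2 KO means lie below the vehicle-treated ones.

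Other genes of the pathway gave the setting for these values. Of 101 further ribosome biogenesis genes (40S, 60S, snoRNP and Pol I), 25 rose and 1 fell in the CaggCreERT2 cohort with a median of 0.24, 3 rose and 1 fell in untreated KspCre (0.08), and 22 rose and 6 fell with vehicle (0.11). The shares that rose, 24.8%, 2.97% and 21.8%, were above, below and near those of all genes given above. Heatr1 and Ltv1, of 40S assembly, rose in all 3 cohorts. Heatr1 had log2 fold changes of 0.54 ± 0.15, 1.05 ± 0.23 and 1.34 ± 0.17, and Ltv1 of 0.58 ± 0.12, 0.46 ± 0.11 and 0.81 ± 0.13. Of 22 Pol III genes, 3 rose in CaggCreERT2, 2 in untreated KspCre, and 3 rose and 3 fell with vehicle. Their shares that rose, 13.6%, 9.09% and 13.6%, were near, near and below those of all genes. The Pol III subunits Polr3k (0.42 ± 0.13, 0.60 ± 0.11 and 0.85 ± 0.12) and Crcp (0.84 ± 0.13, 0.52 ± 0.12 and 0.64 ± 0.12), rose in all 3 cohorts.

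Markers of cell types moved in the same libraries. Summed FPKM of 12 proliferation genes were 84.7, 85.1 and 39.4 in CaggCreERT2 Tsc2 KO against 40.0 to 55.1 in controls, 27.2 to 40.1 against 2.89 to 6.66 in untreated KspCre, and 18.8 to 59.6 against 3.37 to 4.40 with vehicle. Of these 12 genes, 4, 12 and 12 rose in the 3 cohorts. The 10 macrophage genes summed to 385 to 667 FPKM against 184.5 to 219.5 in CaggCreERT2, 571 to 920 against 189 to 282 in untreated KspCre, and 318 to 727 against 140 to 155 with vehicle, with 5, 1 and 9 genes raised. The 10 proximal tubule genes summed to 1141 to 1811 against 2810 to 3295 in CaggCreERT2, 1275 to 2316 against 2760 to 3358 in untreated KspCre, and 682 to 1091 against 2872 to 3247 with vehicle, with 7, 6 and 8 genes lowered. Podocyte genes fell too, 5, 5 and 4 of 5. Of 11 genes of the distal tubule and collecting duct, 8, 6 and 6 fell and 0, 1 and 1 rose, with median log2 fold changes of -1.37, -1.34 and -1.21. Their sums were 1070 to 1386 FPKM against 1984 to 2430 in CaggCreERT2, 2316 to 2494 against 1953 to 2506 in untreated KspCre, and 1372 to 2332 against 1667 to 2219 with vehicle, so the groups overlapped in both KspCre cohorts. Of 5 endothelial genes 0, 4 and 3 fell. No gene of these 6 lists was at 0 in a whole group. Their part in the members' differences was not tested.

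Promoter sequences were available from RefSeq (GRCm38.p6) for 29 of the 35 members, and were searched for CACGTG, the E-box that Myc binds and that forms the core of the TFEB site; it reads the same on both strands. In the 250 bases before the annotated start, 2 of 29 members held it (6.90%, 95% Wilson interval 1.91 to 22.0%), against 6.86% of 27025 genes. In the 100 bases before the start it was the same 2 members, against 3.70% of all genes. With the 50 bases after the start included, 6 of 29 held it (20.7%, interval 9.85 to 38.4%), against 8.09% of all genes; this window was added after the sites had been seen. The windows below show those sites, with the motif in capitals and positions counted from 1 at the start and from -1 before it. A match is a description of these letters and not a bound site.
Nop2, position -60, chr6:125131811-125131840, plus strand: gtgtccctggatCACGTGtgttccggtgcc
Rrn3, position -215, chr16:13780472-13780501, plus strand: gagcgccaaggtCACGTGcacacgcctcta
Rrn3, position -48, chr16:13780639-13780668, plus strand: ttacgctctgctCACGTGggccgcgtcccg
Pes1, position 3, chr11:3963965-3963994, plus strand: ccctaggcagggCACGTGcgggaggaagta
Wdr43, position 18, chr17:71616220-71616249, plus strand: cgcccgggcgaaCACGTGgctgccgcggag
Utp20, position 38, chr10:88826765-88826794, minus strand: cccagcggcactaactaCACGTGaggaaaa
Mybbp1a, position 41, chr11:72441347-72441376, plus strand: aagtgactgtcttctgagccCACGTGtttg
Of the 6 members with a site, Rrn3 and Pes1 rose with loss of Tsc2 in the CaggCreERT2 and drug cohorts, Mybbp1a rose in the CaggCreERT2 cohort, Utp20 fell in the drug cohort, and Nop2 and Wdr43 were called in no comparison.

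The next question was what the added loss of Tfeb does to these levels. In the CaggCreERT2 cohort, 0 members rose and 5 fell in DKO against Tsc2 KO (background 5.34% and 4.58% of tested genes). DESeq2 called 0 higher and 7 lower (7.86% and 6.95% of all genes). The members' median was -0.25, against 0.01 for all genes, and 34 of 35 were below 0. Myc was at 6.87, 6.74 and 4.26 FPKM in DKO against 12.1, 10.4 and 8.20 in Tsc2 KO (-0.80 ± 0.19, adjusted p = 0.02179). Npm1 was at 66.8, 73.1 and 68.9 FPKM against 108, 103 and 120 (-0.69 ± 0.10, adjusted p = 0.002418), and Ncl at 37.2, 37.2 and 37.5 against 51.1, 44.3 and 47.8 (-0.38 ± 0.09, adjusted p = 0.02127). Nolc1 and Pes1 fell by 0.34 ± 0.10 and 0.29 ± 0.08. DKO and Tsc2 KO libraries did not overlap for Myc, Npm1 or Ncl. Npm1 in DKO lay below the controls as well, which were at 77.1 to 82.9 FPKM, but that difference did not pass (-0.15 ± 0.10, adjusted p = 0.4349).

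Of these 5 calls only that of Npm1 held without each library in turn. With sex as a covariate the calls of Ncl, Nolc1 and Pes1 were lost. Leaving out 1 library gave 1 to 6 lower members, with 1 left without Tsc2 KO 1 or DKO 3 and 2 without DKO 1 or DKO 2. Myc was lost without Tsc2 KO 1 or DKO 3, and Ncl without Tsc2 KO 1 or any DKO mouse. Nolc1 was lost without any library but Tsc2 KO 3, and Pes1 without any 1 of the 6. Without the 2 libraries of conflicting genotype 0 were higher and 2 lower (3.55% and 2.52% of all genes).

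The same comparison was made in KspCre kidneys, and the cohorts were not tested against each other. In untreated kidneys the difference of Tfeb itself did not pass (-0.48 ± 0.20, adjusted p = 0.36). Without treatment, 0 rose and 0 fell in DKO against Tsc2 KO by edgeR (background 0.0601% and 0.0842%) and by DESeq2, and 0 were higher and 3 lower at an unadjusted p under 0.05, which 12.6% of all genes passed. With vehicle, 0 rose and 2 fell (background 11.9% and 10.0%), and DESeq2 called 0 higher and 7 lower (13.7% and 11.6% of all genes). Noc4l was at 5.80, 5.48 and 5.37 FPKM in DKO against 9.16, 8.25 and 8.002 in Tsc2 KO (-0.61 ± 0.11, adjusted p = 0.00107). Ddx21 was at 8.78, 11.0 and 9.72 against 13.6, 13.3 and 12.7 (-0.42 ± 0.11, adjusted p = 0.01409), a call lost without DKO 1. Neither gene overlapped between the groups. Myc was at 3.13, 4.76 and 2.75 FPKM in DKO with vehicle, and its difference of -0.52 ± 0.23 did not pass (adjusted p = 0.1132). In untreated DKO, Myc was at 5.70, 2.59 and 2.41 FPKM, the first of these in the mouse with the high immune markers (-0.54 ± 0.37 with it and -1.06 without it). Proliferation genes moved too: 12 of 12 fell in DKO with vehicle (7.06 to 8.39 FPKM summed) and 0 of 12 in CaggCreERT2 DKO (43.6 to 55.0), and 8 and 6 of 10 proximal tubule genes rose. Their part was not tested.

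The DKO kidneys were also compared with controls. In the CaggCreERT2 cohort 4 rose and 0 fell (background 6.85% and 3.35%): Myc (0.83 ± 0.20), Rrp12 (0.71 ± 0.20), Gnl3 (0.63 ± 0.13) and Nop14 (0.41 ± 0.12). Rrp12 was at 3.70, 3.74 and 4.47 FPKM and Gnl3 at 4.65, 5.22 and 4.76, above all 3 controls. These calls depended on the libraries: leaving out any 1 of the 6 left 0 to 2, and 1 rose and 0 fell without the 2 libraries of conflicting genotype (4.63% and 1.45% of all genes). With sex as a covariate the calls of Rrp12 and Nop14 were lost. In untreated KspCre DKO 0 rose and 0 fell by edgeR (background 2.27% and 0.830%), with 2 higher and 1 lower at an unadjusted p under 0.05 (19.4% of all genes) and 1 higher by DESeq2 (5.8% of all genes). With vehicle Rrp12 rose (0.69 ± 0.17) and Utp20 fell (-0.97 ± 0.27), where 3.96% of genes rose and 2.06% fell. Both calls were lost without any 1 of the 6 libraries.

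In Tfeb KO kidneys the Tfeb RNA itself did not pass the test: it was at 3.64, 3.73 and 2.73 FPKM against 5.30, 4.57 and 8.02 in CaggCreERT2 controls (-0.80 ± 0.23, adjusted p = 0.3939), and at 4.32, 4.80 and 5.25 against 5.85, 6.05 and 6.24 in untreated KspCre (-0.33 ± 0.20, adjusted p = 0.6269). Untreated KspCre Tsc2 KO kidneys were at 3.96, 6.12 and 3.66 FPKM, so 2 of 3 lay below the Tfeb KO values. A missed threshold does not show that these levels were alike. Among the members, in Tfeb KO against control, 0 rose and 0 fell by edgeR and by DESeq2 in CaggCreERT2 (background 0.0122% and 0.00612%) and in untreated KspCre (background 0% in both directions). At an unadjusted p under 0.05, 1 was higher and 1 lower in the former (8.01% of all genes passed), and 1 higher and 0 lower in the latter (8.56%). The Tfeb effect without Tsc2 (DKO against Tsc2 KO) minus that with Tsc2 (Tfeb KO against control) was called for 0 members in either cohort (background 1.05% higher and 0.355% lower in CaggCreERT2, 0% in KspCre). At an unadjusted p under 0.05, 9 members were lower and 0 higher by that test in CaggCreERT2, where 15.9% of all genes passed, and DESeq2 called 4 lower (3.55% of all genes higher and 1.76% lower). In untreated KspCre 3 were lower and 0 higher at an unadjusted p under 0.05 (9.8% of all genes), and DESeq2 called 0. The lowest adjusted p in CaggCreERT2 belonged to Npm1 (-0.57 ± 0.14, adjusted p = 0.07242). For Myc the same difference, without Tsc2 minus with it, was -1.05 ± 0.28 (adjusted p = 0.08577). In CaggCreERT2 the controls were 3 males and the Tfeb KO mice 3 females, so sex and genotype coincide in Tfeb KO against control.

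**Figure D4:**
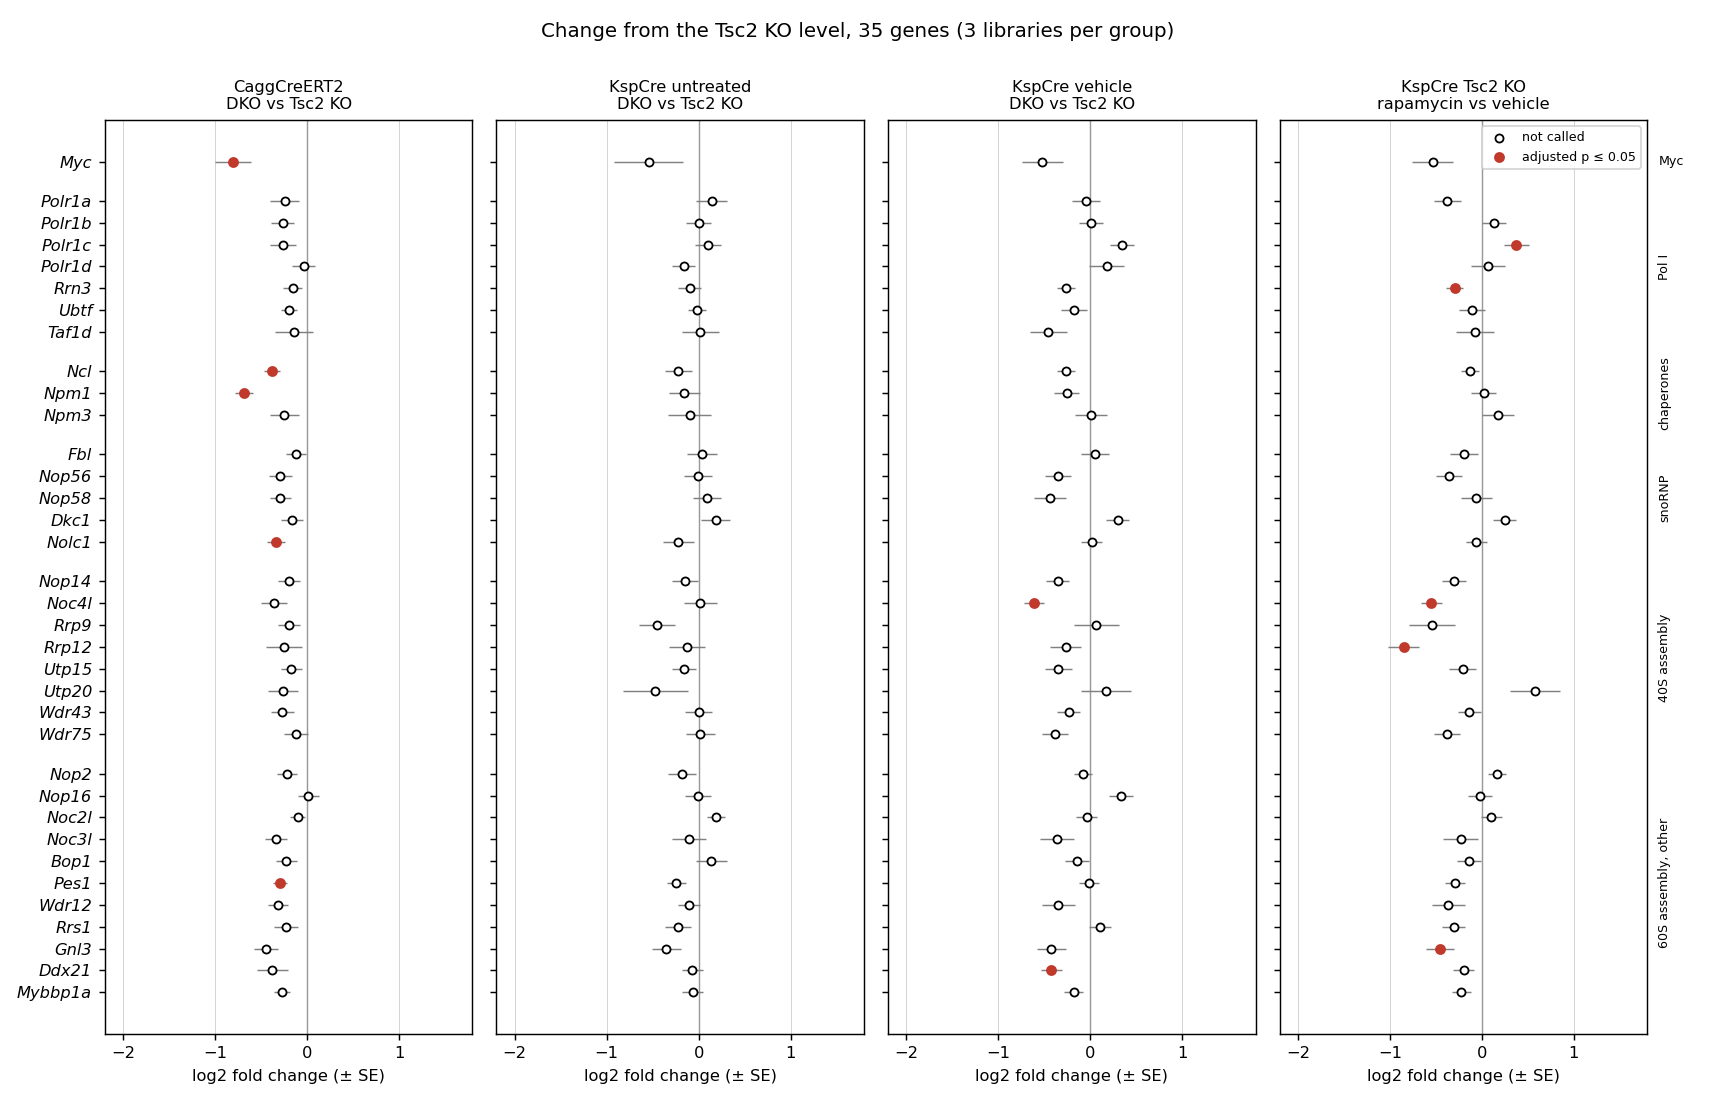
Log2 fold change from the Tsc2 KO level (x axis, with standard error) for the 35 genes (y axis, grouped by role): DKO over Tsc2 KO in the 3 cohorts, and rapamycin over vehicle within KspCre Tsc2 KO, 3 libraries per group. Filled points passed the adjusted p of 0.05: 5 lower in CaggCreERT2, 0 in untreated KspCre, 2 lower with vehicle, and 4 lower with 1 higher after rapamycin.

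The last question was what rapamycin does to the members. In Tsc2 KO kidneys, 4 members fell and 1 rose with rapamycin against vehicle (background 14.0% fell and 15.4% rose), with a median of -0.19 against -0.02 for all genes and 26 of 35 below 0. Rrp12 was at 1.89, 2.86 and 2.09 FPKM with rapamycin against 4.02, 4.78 and 3.55 with vehicle (-0.85 ± 0.17, adjusted p = 0.001427). Noc4l was at 5.36, 5.82 and 6.13 against 9.16, 8.25 and 8.002 (-0.55 ± 0.11, adjusted p = 0.001633). Neither overlapped with its vehicle group, and both calls held without each library in turn. Rrp12 lies under 5 FPKM in every library of the drug cohort, and its call was not kept with a minimum mean of 5 FPKM.

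Gnl3 was at 2.76, 4.19 and 3.42 FPKM with rapamycin against 5.61, 4.25 and 4.33 (-0.45 ± 0.15, adjusted p = 0.03656), and Rrn3 at 7.23, 8.51 and 7.77 against 9.66, 9.45 and 9.79 (-0.29 ± 0.09, adjusted p = 0.0266). Polr1c was higher, at 17.9, 11.8 and 13.9 FPKM against 11.6, 11.1 and 11.0 (0.38 ± 0.13, adjusted p = 0.0424). These 3 calls were lost without some libraries: Gnl3 without vehicle 1 or rapamycin 1 or 3, Rrn3 without vehicle 1 or 3 or rapamycin 1 or 3, and Polr1c without any library but rapamycin 2. All 3 were also lost without the low-count filter and with only the groups compared. Myc was at 3.02, 3.62 and 3.85 FPKM, below all 3 vehicle values, and did not pass (-0.54 ± 0.23, adjusted p = 0.0889). In the same comparison 12 of 12 proliferation genes fell, to 4.82 to 5.72 FPKM summed, and 9 of 10 proximal tubule genes rose, to 2694 to 3087. Their part was not tested.

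In control kidneys, 0 members rose and 0 fell with rapamycin by edgeR (background 0% and 0.0294%) and by DESeq2, with 2 higher and 5 lower at an unadjusted p under 0.05, which 11.3% of all genes passed. The difference between the rapamycin effects in Tsc2 KO and in controls was called for 3 members, 1 higher and 2 lower (background 11.4% and 9.38%). It was -1.08 ± 0.24 for Rrp12 (adjusted p = 0.005345) and -0.75 ± 0.16 for Noc4l (adjusted p = 0.003906), and both held without each of the 12 libraries. In controls, Rrp12 was at 2.37, 2.47 and 2.65 FPKM with rapamycin, among and just above the vehicle values, and Noc4l at 5.37, 4.53 and 5.62. Utp20 had a difference of 1.23 ± 0.38 (adjusted p = 0.03192). Its rapamycin values were 3.18, 5.59 and 4.79 FPKM in controls, below all 3 vehicle controls, and 2.77, 7.63 and 4.06 in Tsc2 KO, around the vehicle-treated ones. Without Tsc2 KO rapamycin mouse 2, which held the value of 7.63, that call was lost, as it was without 6 of the other 11 libraries.

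**Figure D5:**
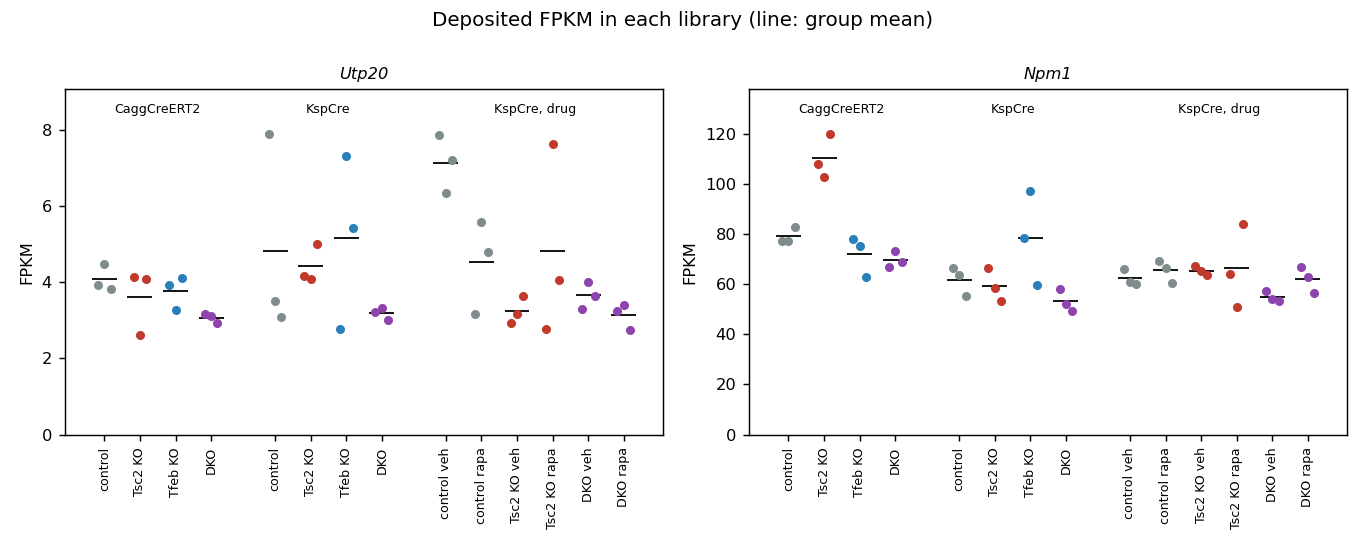
Deposited FPKM (y axis, from 0) of Utp20 and Npm1 in each library, with a line at the mean of each group of 3. Utp20 is at 6.34 to 7.86 FPKM in vehicle controls of the drug cohort and at 2.93 to 3.64 in vehicle-treated Tsc2 KO, with single high libraries elsewhere, and Npm1 is above 100 FPKM only in CaggCreERT2 Tsc2 KO.

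In DKO kidneys, rapamycin against vehicle lowered 1 member and raised 0 (background 3.47% and 2.10%). This was Nop16, a 60S assembly factor, which fell by 0.63 ± 0.13 (adjusted p = 0.01112, lost without DKO vehicle 1 or DKO rapamycin 2 or 3). The rapamycin effect in Tsc2 KO and in DKO differed for 1 member, Noc4l, by -0.60 ± 0.16 (adjusted p = 0.0319, background 2.25% lower and 4.70% higher), a call lost without 9 of the 12 libraries. Noc4l in DKO was at 5.80, 5.48 and 5.37 FPKM with vehicle and at 5.81, 5.42 and 5.99 with rapamycin.

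With rapamycin, Tsc2 KO kidneys differed from control kidneys in 0 members in either direction by edgeR (background 0.505% higher and 0.129% lower), with 4 higher and 0 lower at an unadjusted p under 0.05 (12.9% of all genes) and 1 higher by DESeq2 (1.47% of all genes). The members' median was 0.03, where it had been 0.23 with vehicle. DKO with vehicle and Tsc2 KO with rapamycin differed in 0 members by edgeR (background 0.828% and 0.440%), with 6 higher and 2 lower at an unadjusted p under 0.05 (19.5% of all genes) and 2 higher by DESeq2 (3.76% of all genes). A difference that misses the threshold does not show that the levels were alike: for Rrp12 it was 0.59 ± 0.17, with DKO higher.

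The members lie on 16 chromosomes. In 7 of them (Taf1d, Ncl, Nop56, Nop58, Dkc1, Wdr43 and Gnl3) the gene spans 27 annotated snoRNA genes on its own strand, which poly-A capture does not measure. The spans of 10 members overlap a protein-coding gene on the opposite strand, and the libraries do not keep strand, so reads in such overlaps cannot be assigned by strand. For Taf1d, Nop56, Dkc1, Rrp9, Bop1, Gnl3 and Mybbp1a such a partner had more reads than the member. The overlaps were 235 bases for Taf1d with 4931406C07Rik, whose 352304 reads over all libraries were the most of these partners, 131 for Mybbp1a with Spns2, 5 for Nop56 with Idh3b, 15 for Gnl3 with Pbrm1, 45 for Dkc1 with Mpp1, 50 for Bop1 with Mroh1 and 987 for Rrp9 with Parp3, while Wdr12 shares 399 bases with Carf. The part of these overlaps in the members' values was not tested. Of the 35 members, 14 were called in none of the 16 comparisons and 4 interactions, among them the Pol I subunits Polr1a, Polr1b and Polr1d. No share of all genes is given for this count, so it has no background.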

How the data were processed

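Poly-A RNA of 42 mouse kidneys was sequenced from non-directional libraries. The authors deposited, per cohort, raw gene counts and a table of FPKM values (counts scaled by gene length and library total). The submitters' notes name mm10, STAR 2.6.1d, HISAT2 2.0.5, featureCounts 1.5.0-p3 and DESeq2 1.20.0 without giving a role for each. Samples were grouped by their labels, and libraries of the CaggCreERT2 cohort by the names of the FPKM table.

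Deposited counts were tested with edgeR 4.0.16 (R 4.3.3; low-count filter of filterByExpr, TMM scaling, quasi-likelihood test) in 1 fit per cohort over all its groups. P-values were Benjamini-Hochberg adjusted over all tested genes, with a call at 0.05 or less. SE is that of the log2 fold change. FPKM served to show levels. DESeq2 1.42.0 was an alternative, beside RLE scaling, no filter, an FPKM minimum of 5, only the groups compared, a replicate block, sex, the other library names, and each library left out. The code was tested on simulated counts. Libraries held 14926050 to 22807605 counts. Replicates are separate samples by label, and p-values measure the spread between them.

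Values in every library were given for Myc, for members called in at least 2 of the 3 Tsc2 KO comparisons, and for the 3 members with the highest and the 3 with the lowest mean change; other pathway genes were named if called in 1 direction in all 3 cohorts. Per-library values of Gnl3, Ncl and Npm1 were added after their values were seen. The members and gene lists were chosen with earlier results of these data known. Promoters came from RefSeq (GRCm38.p6), with 6 members (Bop1, Fbl, Myc, Npm1, Rrp12 and Rrs1) not matched.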

Additional observations from a re-analysis of the deposited data

Results flagged for a closer look

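A difference between groups in the response to rapamycin marked 4 results, each from the interaction test of edgeR. Between Tsc2 KO and control kidneys the rapamycin effect differed for Rrp12 by -1.08 (log2, adjusted p = 0.005345), for Noc4l by -0.75 (adjusted p = 0.003906) and for Utp20 by 1.23 (adjusted p = 0.03192). Rrp12 and Noc4l kept the call without each of the 12 libraries, though Rrp12 did not with a minimum mean of 5 FPKM, and Utp20 in 5 of the 12 refits. Between Tsc2 KO and DKO kidneys the effect differed for Noc4l by -0.60 (adjusted p = 0.0319), which was kept in 3 of 12 refits. Of all tested genes, 11.4% were higher and 9.38% lower in the interaction with control, and 4.70% and 2.25% in that with DKO. No cause was tested.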

How the results depend on the processing

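Of 53 called values, 16 stayed past the threshold in every setting and 0 changed sign; 226 of 342 refits without 1 library and 319 of 396 other refits kept the call. Of 554 refits of the 40 counts of called members, 453 stayed within 1.5 times of the reported count and 101 moved. The causes were not tested. Depth limits the members of lowest level, of which the lowest library count was 87 reads, and 3 libraries per group limit the precision of all.

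Without the low-count filter, members lower in CaggCreERT2 DKO against Tsc2 KO went from 5 to 2, Tsc2 KO with vehicle had 6 higher and 1 lower, rapamycin in Tsc2 KO gave 0 higher and 2 lower, the CaggCreERT2 Tfeb interaction had 1 lower and the rapamycin interaction of Tsc2 KO with DKO had 0. With only the groups compared in the fit, the lower count in CaggCreERT2 DKO against Tsc2 KO was 1, DKO against control had 2 lower, untreated KspCre Tsc2 KO had 2 higher, Tsc2 KO with vehicle had 4 higher and 1 lower, rapamycin in Tsc2 KO gave 0 higher and 2 lower, DKO against control with vehicle had 0 higher, rapamycin in DKO gave 2 lower, and the rapamycin interactions had 0 higher for Tsc2 KO with control (Utp20 was lost, Noc4l and Rrp12 were kept) and 0 lower for Tsc2 KO with DKO.

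With DESeq2, CaggCreERT2 DKO against control had 1 lower (5.3% of all genes). Untreated KspCre Tsc2 KO had 4 higher and DKO 1 higher against control (10% and 5.8%). DKO with vehicle had 7 lower against Tsc2 KO (11.6%) and 2 higher against control (6.59%). Rapamycin in DKO gave 2 lower (5.66%), and Tsc2 KO against control under rapamycin had 1 higher (1.47%). DKO with vehicle against Tsc2 KO with rapamycin had 2 higher (3.76%). The interactions had 4 lower for CaggCreERT2 Tfeb (1.76% of all genes), 4 lower for rapamycin in Tsc2 KO with control (11.4%) and 1 higher for Tsc2 KO with DKO (6.94%). With an FPKM minimum of 5, CaggCreERT2 DKO against control had 2 higher, untreated KspCre Tsc2 KO 0, rapamycin in Tsc2 KO 2 lower, DKO against control with vehicle 0 higher and the rapamycin interaction with control 1 lower. RLE scaling moved no count by over 1.5 times.

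In the CaggCreERT2 cohort, sex as a covariate left 2 lower members in DKO against Tsc2 KO and 2 higher in DKO against control, the count table's names, which the Tsc2 values of the 2 libraries of conflicting genotype go against, left 3 and 0, and leaving out the 2 libraries of conflicting genotype left 2 and 1. Replicate numbers did not pair the libraries: deviations of same-numbered libraries had median correlations of 0.00881, -0.04 and -0.00502 in the 3 cohorts. With a replicate block, CaggCreERT2 DKO had 3 lower against Tsc2 KO and 2 higher against control, DKO against Tsc2 KO with vehicle had 4 lower, and the rapamycin interaction with DKO had 1 higher; with the block Npm3 was at 0.01 in Tsc2 KO with vehicle. Other uncalled values that changed sign were Polr1c at -0.11 in CaggCreERT2 Tsc2 KO with sex, and, with only the groups compared, Nop56 at 0.01 in untreated KspCre DKO against Tsc2 KO and Npm3 at -0.01 in DKO against Tsc2 KO with vehicle.

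Leaving out 1 library gave these ranges for counts: 1 to 6 lower in CaggCreERT2 DKO against Tsc2 KO, 0 to 2 higher in DKO against control, 0 to 2 higher in untreated KspCre Tsc2 KO, 5 to 10 higher and 1 to 2 lower in Tsc2 KO with vehicle, 0 to 1 higher and 3 to 7 lower for rapamycin in Tsc2 KO, 0 to 1 higher and 1 to 4 lower in DKO against Tsc2 KO with vehicle, 0 to 2 higher and 0 to 0 lower in DKO against control with vehicle, 0 to 1 lower for rapamycin in DKO, 0 to 2 lower for the CaggCreERT2 interaction, 0 to 1 higher and 2 to 3 lower for the rapamycin interaction with control, and 0 to 0 higher and 0 to 1 lower for that with DKO. Uncalled values that changed sign ranged from -0.07 to 0.14 (Polr1c) and -0.23 to 0.08 (Utp20) in CaggCreERT2 Tsc2 KO, from -0.35 to 0.41 (Utp20) and -0.05 to 0.15 (Bop1) in untreated KspCre Tsc2 KO, from -0.22 to 0.12 (Nop56) and -0.19 to 0.11 (Noc4l) in untreated KspCre DKO against Tsc2 KO, from -0.19 to 0.22 (Npm3) in Tsc2 KO with vehicle, and from -0.08 to 0.08 (Npm3) and -0.06 to 0.02 (Pes1) in DKO against Tsc2 KO with vehicle.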
